A study of Mus musculus with 12 samples.

Results

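The genes described here are 40 mouse genes of the cell division cycle, followed on 12 arrays of 2 colours that measured RNA from samples of 2 Eng genotypes under 3 treatment levels. A gene was taken if a non-control probe carried an accession that the RefSeq gene table pairs with one of the listed symbols. All 40 genes had such a probe, 52 probes in all, of which 51 could be tested, among 25085 tested features (17167 with a gene symbol). The genes fall into 12 that copy DNA or supply its building blocks (Mcm2 to Mcm7, Cdc6, Cdt1, Pcna, Rrm1, Rrm2, Tyms), 5 that govern the passage from G1 into S phase (Ccnd1, Ccnd2, Ccne1, Ccne2, E2f1) and 23 that act in G2 and mitosis, from Mki67, Plk1 and Cdk1 to Ube2c and Nusap1.

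Each array compared 1 sample, labelled with Cy5, with a Cy3-labelled pool of all conditions, in the same dye orientation throughout. The samples were heterozygous for Eng (Eng+/-) or wild type (wt), were labelled 50 or 90 d, and were labelled clp, tpa or with no treatment name. Each of the 12 combinations was measured on 1 array, so no group had replicates. What clp and tpa stand for, what the days count, and whether animals were pooled are not given in the sources used here, although both wt titles without a treatment name carry the word pool. The product of Eng is endoglin, an accessory receptor of TGF-beta signalling that is best known from blood vessels.

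Cells copy their DNA once per division. In G1 the origin recognition proteins, Cdc6 and Cdt1 load the hexamer of Mcm2 to Mcm7 on origins, and D-type and E-type cyclins with their kinases release E2F factors, which switch on the genes of DNA synthesis. The genes of G2 and mitosis follow later, many of them through CHR and CCAAT elements read by the MuvB complex with B-Myb or FoxM1 and by NF-Y. In skin most dividing cells lie in the basal epidermis and, during hair growth, in the matrix of the hair bulb, which makes these genes common markers of the growth phase of the hair cycle.

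Per the labels the RNA came from the embryonic stem cell line E14, and the markers went against it in part. Of 8 stem cell markers, Nanog, Tdgf1, Esrrb, Dppa5a and Utf1 were well above background on all 12 arrays, Sox2 on 7, Pou5f1 on 1 and Zfp42 on 0. All 7 basal epidermis markers, all 4 suprabasal markers and 9 of 10 hair shaft markers were well above background on all 12 arrays. In 5 of 6 genotype pairs the Eng probe read lower in the sample labelled Eng+/-, and in the pair of tpa at 50 d it read higher, with a mean log2 difference of -0.77 ± 0.26 (SE) that did not pass the threshold (limma adjusted p = 0.331). Median Cy5 signals ran from 166.5 to 573 units over the arrays, and 65.67 to 77.68% of probes were above background in Cy5. Each treatment level lay on a slide of its own, so treatment and slide cannot be told apart, while genotype and day were compared within slides. The labelled genotype is used below as the labels give it, also for the tpa pair at 50 d in which Eng itself went the other way.

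Promoter sequences show how these genes differ in the elements known to time their transcription. The RefSeq table (GRCm38.p6) held 30 of the 40 genes with 31 promoters, and the 250 bases before each start were searched on both strands for the CHR element (TTTGAA), the CCAAT box (CCAAT) and an E2F site (TTTCCCGC, TTTGGCGC, TTTCGCGC or TTTGCCGC). CHR letters were present in 7 of 17 promoters of mitotic genes (41.2%), in 1 of 12 of replication genes (8.33%, Mcm2) and in 16.0% of all promoters of that length. E2F letters were present in 4 of 12 replication promoters (33.3%: Cdc6, Mcm5, Mcm6 and Mcm7), in 1 mitotic promoter (5.88%, Cdk1) and in 1.86% of all promoters. CCAAT letters were present in 88.2% of mitotic, 75.0% of replication and 33.8% of all promoters. Each count describes letters in a window and was not tested. Of the 5 genes called below, Mki67 and Kif11 (CHR and CCAAT) and the Mcm7 start with E2F and CCAAT letters are printed, with Cdk1, which held all 3 elements, and Mcm6, in which E2F letters on both strands overlap. Capitals mark the matches, and each sequence runs 5′ to 3′ on the gene's strand and ends at the base before the start.

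Mki67, chr7:135716380-135716629, minus strand: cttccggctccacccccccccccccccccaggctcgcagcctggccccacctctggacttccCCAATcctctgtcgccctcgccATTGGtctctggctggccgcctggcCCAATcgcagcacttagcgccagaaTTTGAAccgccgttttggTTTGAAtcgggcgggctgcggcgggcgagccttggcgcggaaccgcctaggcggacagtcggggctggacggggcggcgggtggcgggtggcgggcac

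Kif11, chr19:37376132-37376381, plus strand: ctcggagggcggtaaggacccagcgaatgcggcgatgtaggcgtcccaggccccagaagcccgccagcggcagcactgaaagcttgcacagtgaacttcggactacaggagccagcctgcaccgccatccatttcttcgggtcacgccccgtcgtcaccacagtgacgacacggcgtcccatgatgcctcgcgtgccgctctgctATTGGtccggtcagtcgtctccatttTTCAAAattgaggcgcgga

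Cdk1, chr10:69352913-69353162, minus strand: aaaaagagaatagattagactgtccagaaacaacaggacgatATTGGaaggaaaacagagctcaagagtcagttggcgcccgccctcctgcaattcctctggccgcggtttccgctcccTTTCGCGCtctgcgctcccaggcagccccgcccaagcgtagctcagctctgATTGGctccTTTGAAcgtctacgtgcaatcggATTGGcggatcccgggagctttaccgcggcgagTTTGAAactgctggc

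Mcm7, chr5:138171884-138172133, minus strand: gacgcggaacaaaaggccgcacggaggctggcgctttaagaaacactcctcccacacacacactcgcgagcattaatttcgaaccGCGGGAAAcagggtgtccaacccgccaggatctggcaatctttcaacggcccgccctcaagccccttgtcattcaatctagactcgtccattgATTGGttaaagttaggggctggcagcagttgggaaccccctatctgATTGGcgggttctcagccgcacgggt

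Mcm6, chr1:128359706-128359955, minus strand: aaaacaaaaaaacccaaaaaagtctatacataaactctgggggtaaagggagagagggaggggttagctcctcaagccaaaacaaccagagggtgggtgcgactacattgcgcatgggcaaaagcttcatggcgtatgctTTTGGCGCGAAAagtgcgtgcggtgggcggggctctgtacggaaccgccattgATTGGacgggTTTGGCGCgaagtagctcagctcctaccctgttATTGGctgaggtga

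In Mki67 the CHR matches began 98 and 116 bases before the start and the CCAAT matches 141, 166 and 188 bases before it, on either strand. In Kif11 a reversed CCAAT box lay 45 bases and a reversed CHR 19 bases before the start. Cdk1 held CHR letters 15 and 71 bases before its start. Plk1, also called below, held 1 CCAAT match and no CHR or E2F letters in this window.

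Most of these genes went up and down together over the 12 arrays. Each array's value is the log2 ratio of sample to pool, and to bring genes onto a common scale each gene's median over the 12 arrays was subtracted. The median of the 40 centred values was highest for wt clp at 50 d (0.68), followed by wt clp at 90 d (0.29) and Eng+/- clp at 50 d (0.25). It was lowest for Eng+/- with no named treatment at 90 d (-0.53), followed by wt tpa (-0.37) and Eng+/- tpa (-0.34) at 50 d. The other 6 arrays lay between -0.17 and 0.12.

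**Figure D1:**
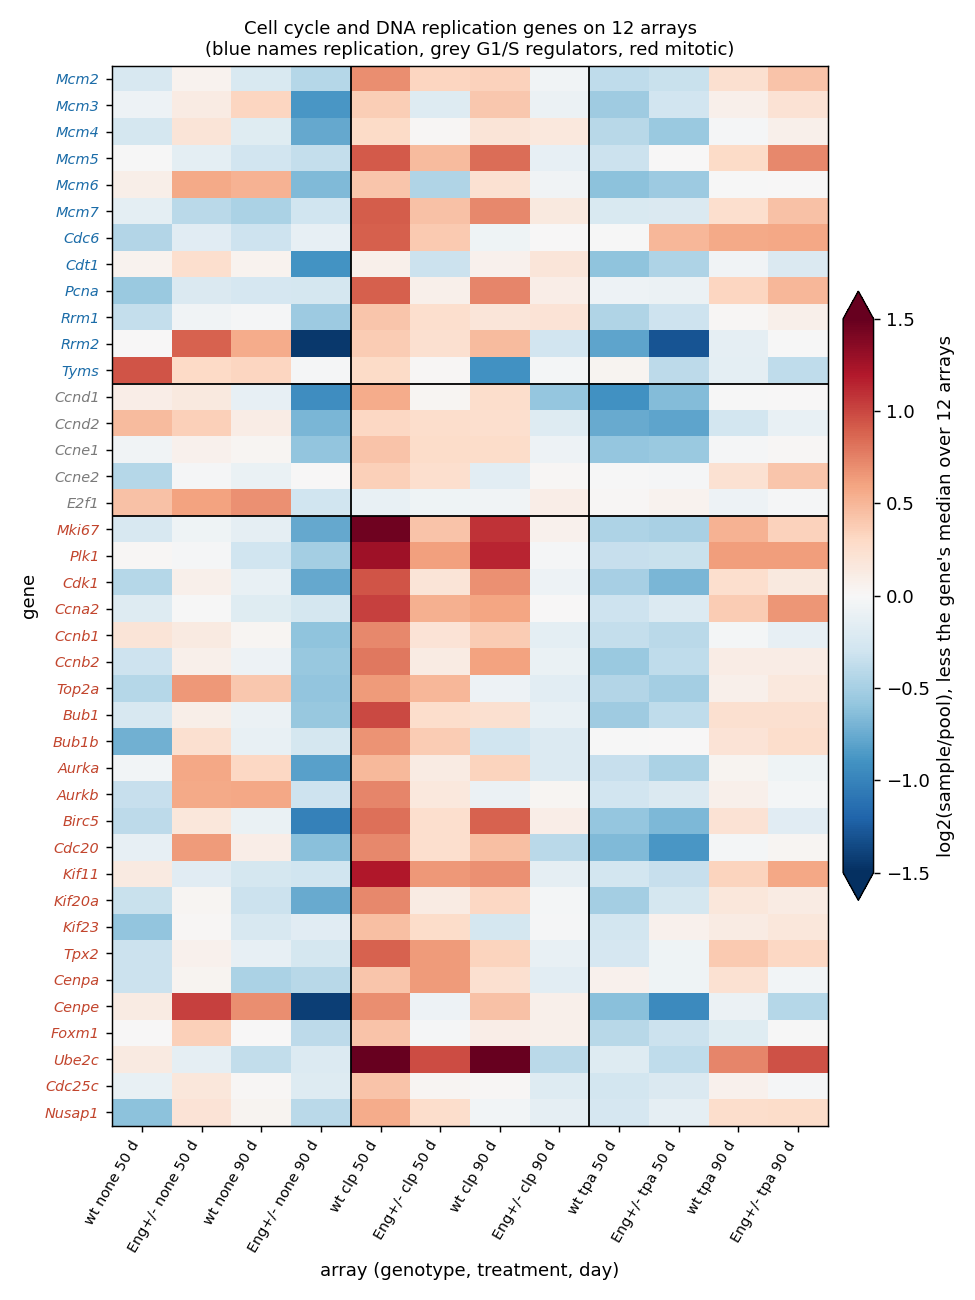
Heat map of the 40 genes (rows, blue names replication, grey G1/S, red mitotic) on the 12 arrays (columns, by treatment), where colour is the log2 ratio of sample to pool less the gene's median over the 12 arrays. The column of wt clp at 50 d holds the highest value of 27 of the 40 genes, and that of Eng+/- with no named treatment at 90 d the lowest value of 22.

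The extremes were shared by both functional groups. On wt clp at 50 d, 7 of 12 replication and 18 of 23 mitotic genes had their highest value, and on Eng+/- with no named treatment at 90 d, 8 replication and 11 mitotic genes had their lowest. For 23 of the 40 genes the 3 lowest arrays were exactly Eng+/- with no named treatment at 90 d and the pair of tpa arrays at 50 d. Over the 12 arrays the correlation between genes had a median of 0.68 over 780 pairs, 0.75 within the mitotic group, 0.63 within the replication group and 0.66 between them. These arrays share the same pool and slides, and the correlations are a description without a test. Bub1, a kinase of the spindle checkpoint, followed the mean of the other 39 genes most closely (r = 0.97), with Cdk1, the kinase that starts mitosis, next (r = 0.97) and cyclin B2 (Ccnb2) after it (r = 0.96). Tyms, which makes thymidylate (r = -0.11), and E2f1, an activator of S-phase genes (r = 0.0014), did not follow the others.

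**Figure D2:**
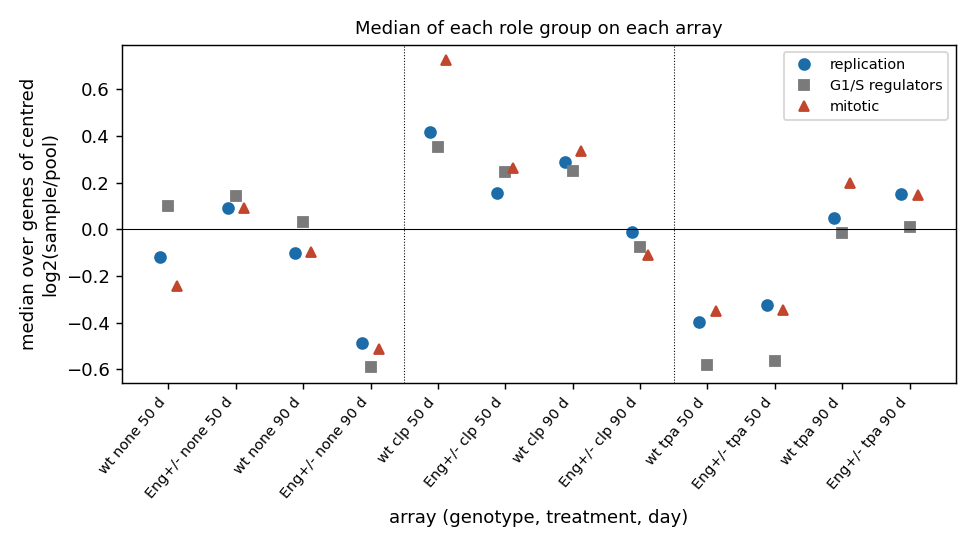
Median of the centred log2 ratio over the 12 replication (circles), 5 G1/S (squares) and 23 mitotic genes (triangles) on each array, in order of treatment, day and genotype. The mitotic median runs from -0.51 to 0.72 and the replication median from -0.49 to 0.42, and these medians lie farthest apart on wt clp at 50 d.

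Clp against no named treatment was the comparison in which single genes of the set passed the test. Of the 40 genes, 5 rose and 0 fell (limma, adjusted p under 0.05 over 25085 features), where 4.27% of all features were called higher and 3.5% lower. The called genes were Mcm7, a subunit of the replicative helicase, and the mitotic genes Mki67, a coat protein of mitotic chromosomes and the standard proliferation marker, Plk1, a kinase of mitotic entry and spindle assembly, Kif11, the motor that separates the spindle poles, and Ccna2, the cyclin of S phase and G2. The log2 difference was positive for 37 of the 40 genes with a median of 0.36, beside 0.011 over all features. The number of calls changed when single arrays were left out. It was 0 without wt clp at 50 d or at 90 d. It was 1 without Eng+/- clp or wt with no named treatment at 50 d. Leaving out any 1 of the tpa arrays, which enter this difference only through the shared spread, also gave 1. It was 3 without Eng+/- with no named treatment at 50 d. Without Eng+/- clp or Eng+/- with no named treatment at 90 d it was 9. The share of all features called in these fits is not given, so the counts cannot be read against it. A pair of wt arrays, not named here, had a reference that stood apart. Without both of them 0 of the 40 genes and 8 of all features were called, beside 1948 of all features in the main fit. The median over the genes was positive whichever single array was left out (0.27 to 0.59). Under median centring it was 0.84, where the median of all features was 0.24 and 88.7% of all calls were higher, beside 54.9% of calls with loess.

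Within the replication group 1 of 12 genes rose and the median difference was 0.46. In the order wt 50 d, wt 90 d, Eng+/- 50 d and Eng+/- 90 d, which is kept below, the log2 ratios of Mcm7 with no named treatment were -0.56, -0.89, -0.81 and -0.71. With clp they were 0.50, 0.31, 0.030 and -0.26, and with tpa -0.63, -0.16, -0.63 and 0.024. All 4 clp values lay above all 4 values without a named treatment, and the difference was 0.89 ± 0.17 (SE, adjusted p = 0.0253), a 1.85-fold rise that was positive in 4 of 4 pairs.

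Pcna, the sliding clamp of DNA polymerase, stood at -0.093, 0.21, 0.25 and 0.20 with no named treatment. Its clp values were 1.35, 1.19, 0.54 and 0.56, and its tpa values 0.39, 0.78, 0.37 and 0.96. Each clp array and each tpa array was above every array without a named treatment, yet the clp difference of 0.77 ± 0.21 missed the threshold (adjusted p = 0.0575). Mcm2, another helicase subunit, showed 0.17, 0.18, 0.46 and -0.023 with no named treatment. With clp its values were 1.11, 0.76, 0.73 and 0.35, and with tpa 0.031, 0.65, 0.071 and 0.83. The clp arrays were above their partners in 4 of 4 pairs by 0.27 to 0.94, and the mean of 0.54 ± 0.16 was not called (adjusted p = 0.0676).

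Rrm2, the small subunit of ribonucleotide reductase, was not called with clp. Its log2 ratios were 0.95, 1.49, 1.82 and -0.50 with no named treatment and 1.32, 1.42, 1.18 and 0.66 with clp. With tpa they were 0.15, 0.80, -0.36 and 0.94. Rrm2 was lowest on the same 3 arrays as most of the set, and the groups overlapped. For clp the difference was 0.20 ± 0.38, with 2 of 4 pairs higher (adjusted p = 0.769). Tyms was the replication gene that went the other way in every pair, with a difference of -0.54 ± 0.23 (adjusted p = 0.167, lower in 4 of 4 pairs). Of the other helicase subunits, Mcm5 differed by 0.73 ± 0.23 and Mcm6 by -0.094 ± 0.26, neither called, so the 6 subunits of 1 hexamer spanned differences from -0.094 to 0.89.

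None of the 5 G1/S regulators was called in clp (limma, 0 of 5, with 2 at an unadjusted p under 0.05, beside 27% of all features), and their median difference was 0.24. Cyclin D1 (Ccnd1), which couples growth signals to cell cycle entry, had log2 ratios of 0.72, 0.50, 0.76 and -0.32 with no named treatment. Its clp values were 1.17, 0.88, 0.64 and 0.036 and its tpa values -0.29, 0.60, -0.030 and 0.63. Its arrays overlapped between treatments, and the clp difference was 0.27 ± 0.22 (adjusted p = 0.453). The cyclins E, which act at the start of S phase, had the smallest p-values of this group, with 0.24 ± 0.10 for Ccne2 (adjusted p = 0.160) and 0.36 ± 0.16 for Ccne1 (adjusted p = 0.174). E2f1 differed by -0.39 ± 0.20 (adjusted p = 0.246).

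Of the 23 mitotic genes 4 rose, all 23 differences were positive, and their median was 0.55. Mki67 had log2 ratios of 0.43, 0.54, 0.61 and -0.10 with no named treatment. With clp it reached 2.13, 1.75, 1.09 and 0.73, and with tpa 0.21, 1.19, 0.18 and 1.01. No clp value lay within the range of the arrays with no named treatment, and the difference was 1.06 ± 0.23 (adjusted p = 0.0324), a 2.08-fold rise seen in 4 of 4 pairs. A second Mki67 probe gave 1.07.

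Plk1 stood at -0.59, -0.90, -0.61 and -1.11 with no named treatment. With clp it stood at 0.67, 0.55, 0.013 and -0.62. With tpa it was low at 50 d (-0.95 and -0.94) and higher at 90 d (0.023 and 0.034). The Eng+/- clp array at 90 d lay within the range without a named treatment and the other clp arrays above it, for a difference of 0.96 ± 0.21 (adjusted p = 0.0338). Kif11 had values of -0.14, -0.54, -0.45 and -0.57 with no named treatment and 0.93, 0.41, 0.37 and -0.41 with clp. With tpa it had -0.55, 0.060, -0.62 and 0.30. Again the Eng+/- clp array at 90 d lay within the range without a named treatment and the other clp arrays above it. The difference was 0.75 ± 0.18 (adjusted p = 0.0393).

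Ccna2 showed -0.25, -0.24, -0.061 and -0.32 with no named treatment and 0.98, 0.55, 0.49 and -0.043 with clp. Its tpa values were -0.36, 0.32, -0.26 and 0.61. Its clp values and its values with no named treatment did not overlap, though the nearest values were -0.043 and -0.061, and the difference was 0.71 ± 0.18 (adjusted p = 0.0473). Cyclin B1 (Ccnb1), the partner of Cdk1 in mitosis, had -0.16, -0.32, -0.22 and -0.96 with no named treatment and 0.37, 0.026, -0.14 and -0.50 with clp. With tpa it had -0.71, -0.38, -0.76 and -0.47. It was higher with clp in 4 of 4 pairs by 0.074 to 0.53, with a mean of 0.35 ± 0.14 that was not called (adjusted p = 0.150). Ube2c, the ubiquitin-conjugating enzyme of the anaphase-promoting complex, had the largest difference of the set, 1.06 ± 0.32, and was not called (adjusted p = 0.0701).

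**Figure D3:**
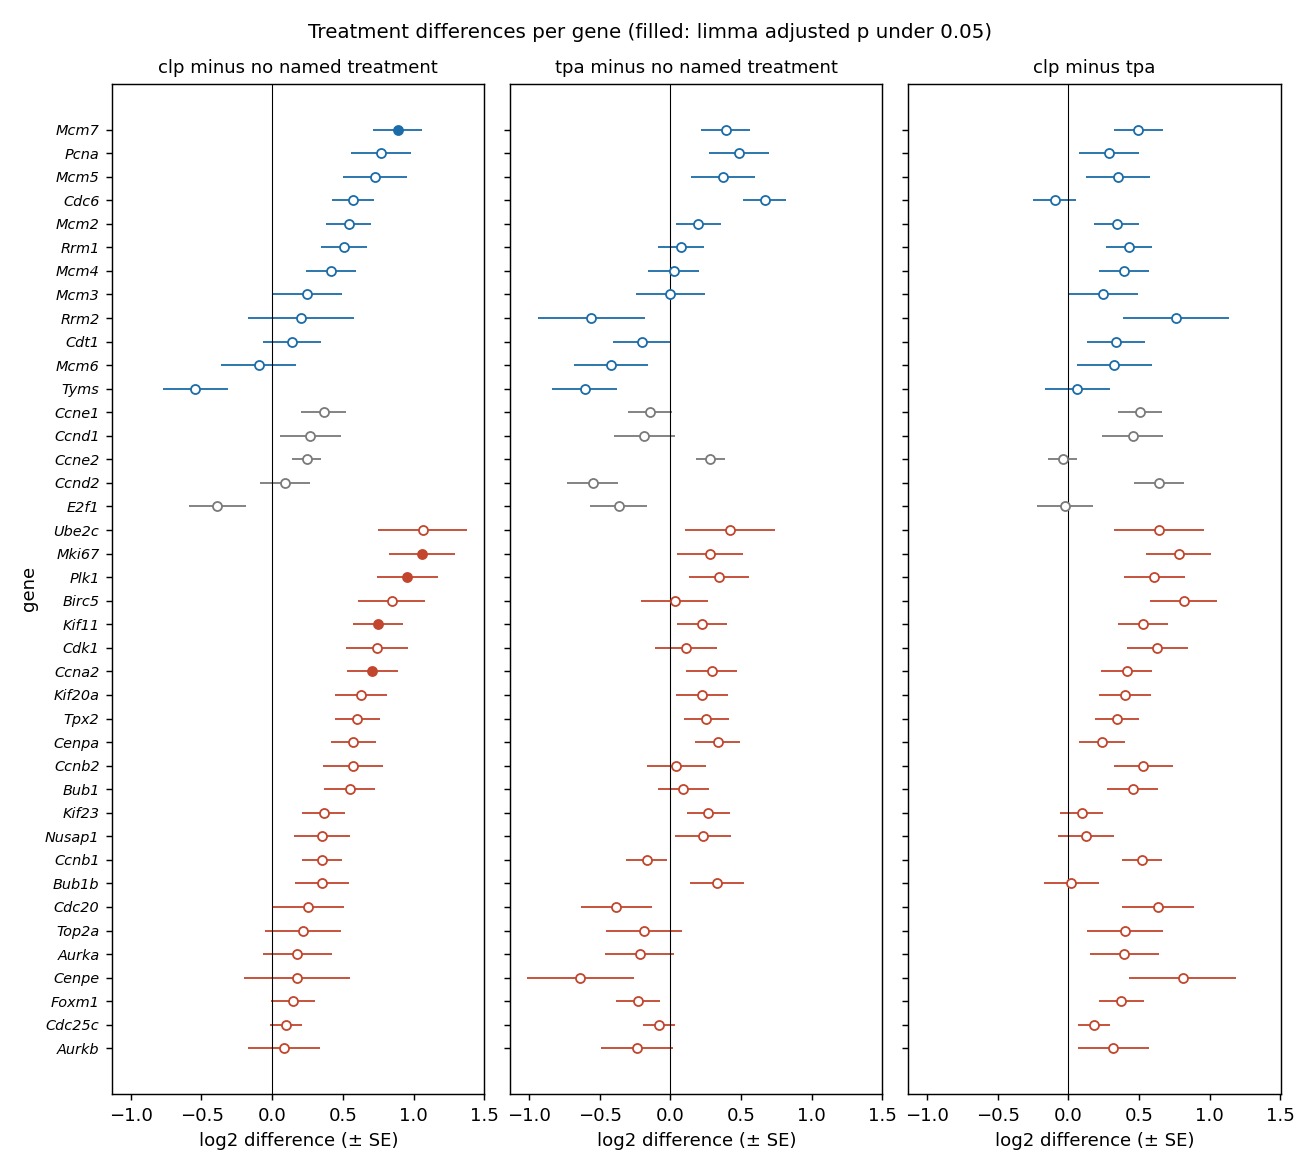
Log2 difference ± SE of each gene for clp and for tpa against no named treatment and for clp against tpa, from the limma fit to all 12 arrays (blue replication, grey G1/S, red mitotic). Filled points are the 5 called genes, all in the clp panel, and the tpa panel is centred near 0 with a median of 0.060.

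In all, 6 genes had every clp array above every array with no named treatment: Mcm7, Cdc6, Pcna, Rrm1, Mki67 and Ccna2. Such separation upward was found for 5.29% of all features and downward for 3.98% (0 genes of the set). At an unadjusted p under 0.05, 24 of the 40 genes (60%) differed between clp and no named treatment, beside 27% of all features. The size of the clp difference varied over the 4 pairs of arrays. The median over the 40 genes was 0.94 in wt at 50 d, where 19 genes were at least 2-fold higher beside 5.61% of all features, 0.44 in Eng+/- at 90 d, 0.29 in wt at 90 d and 0.092 in Eng+/- at 50 d. Probes of 1 gene mostly shared the direction but not always the size. Tpx2, a spindle assembly factor, was the exception in direction, beside a weak Ccne1 probe (-0.091 against 0.36). The Tpx2 probe in use differed by 0.60 and a second one, designed for another transcript accession, by -0.97.

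Genes of the same pathways outside the set were followed as 4 lists, and their shares at an unadjusted p under 0.05 with clp, in either direction, were no higher than the 27% of all features: 27% of further replication genes, 26.8% of further mitotic genes, 25% of inhibitors and pocket proteins and 14.3% of E2F and MuvB genes. By direction, 10 further replication and 11 further mitotic genes were higher at that p and 0 lower, where 3850 of all features were higher and 2933 lower. In the order of the lists, 75.7, 92.7, 68.8 and 64.3% of differences were positive, beside 51.9% of all features. The counts of called genes stand beside 4.27% of all features called higher and 3.5% lower. Of 37 further replication genes, 3 rose with clp and 0 fell, namely Rfc5 (0.74 ± 0.15), a subunit of the clamp loader, Prim1 (0.66 ± 0.16), the primase, and Chaf1b (0.69 ± 0.17), which places histones on new DNA. Of 41 further mitotic genes, 2 rose, Cks1b (1.18 ± 0.24), a partner of cyclin-dependent kinases, and Cdca3 (0.68 ± 0.17). Among 16 inhibitors and pocket proteins, Cdkn2b rose (0.77 ± 0.16) and Cdkn2c fell (-1.22 ± 0.23, adjusted p = 0.0249), both of them inhibitors of the kinases Cdk4 and Cdk6. Among 14 E2F and MuvB genes, Mybl2, which encodes B-Myb, rose (1.07 ± 0.23). The list medians were 0.25, 0.24, 0.052 and 0.13, in the same order.

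Tpa against no named treatment gave no called gene in the set (limma, 0 of 40, with 6 or 15% at an unadjusted p under 0.05, beside 26% of all features), where 0.0279% of all features were called higher and 0.104% lower. This comparison shares its arrays with no named treatment with the clp comparison. The median difference over the 40 genes was 0.060, with 24 positive and 16 negative. By pair of arrays it was positive at 90 d and negative at 50 d, at 0.72 in Eng+/- and 0.20 in wt at 90 d and at -0.44 in Eng+/- and -0.23 in wt at 50 d. The smallest p-value belonged to Cdc6, the licensing factor. Its log2 ratios were 0.056, 0.19, 0.32 and 0.37 with no named treatment, 0.49, 1.06, 0.99 and 1.07 with tpa, and 1.40, 0.43, 0.89 and 0.51 with clp. Every tpa array was above every array with no named treatment, and the difference was 0.67 ± 0.15 (adjusted p = 0.0739). With clp it was 0.57 ± 0.15 (adjusted p = 0.0511), where a second, dimmer Cdc6 probe differed by 0.17. The Cdc6 probe in use was well above background in Cy3 on 11 arrays.

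Pcna was the other gene whose tpa arrays all exceeded those with no named treatment, by 0.49 ± 0.21 (adjusted p = 0.190), and such separation held for 4.56% of all features upward and 6.61% downward (0 genes of the set). Tyms was lower in 4 of 4 pairs (-0.61 ± 0.23, adjusted p = 0.148), as it was with clp. Cyclin D2 (Ccnd2) differed by -0.55 ± 0.18 (adjusted p = 0.116), and Ccne2 by 0.28 ± 0.10. None of the 23 mitotic genes reached an unadjusted p under 0.05 with tpa, beside 26% of all features, the nearest being the centromeric histone Cenpa and the cytokinesis motor Kif23. Mki67 differed by 0.28 ± 0.23 (adjusted p = 0.457) and Mcm7 by 0.39 ± 0.17 (adjusted p = 0.189). No gene of 4 further pathway lists was called with tpa (limma, 0 of 108, with 17 at an unadjusted p under 0.05, beside 26% of all features).

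Set directly against each other, clp and tpa differed in no gene of the set at the threshold (limma, 0 of 40, with 15 or 37.5% at an unadjusted p under 0.05, all higher with clp, beside 24.8% of all features), where 3.62% of features were called higher and 4.54% lower. The difference was positive for 37 of 40 genes, with a median of 0.40 beside 0.049 over all features. Ccnb1 (0.52 ± 0.14, adjusted p = 0.0562), Ccnd2 (0.64 ± 0.18, adjusted p = 0.0600) and Birc5, which encodes the mitotic protein survivin (0.82 ± 0.24), came nearest. Rrm1, the large subunit of ribonucleotide reductase, and Cenpe, a kinetochore motor, were higher on every clp array than on every tpa array, beside 8.24% of all features upward and 7.97% downward (0 genes of the set). Rrm1 differed by 0.43 ± 0.16 and Cenpe by 0.81 ± 0.38. Outside the set, Mybl2 (1.16 ± 0.23) and E2f2 (0.94 ± 0.25) were called higher with clp, as was Cdca3 (0.66 ± 0.17) and, among the inhibitors, Cdkn2b (0.77 ± 0.16), while the checkpoint kinase Ttk (-0.52 ± 0.14) and cyclin G1 (Ccng1, -0.83 ± 0.21) were called lower. None of the 37 further replication genes was called (8 or 21.6% at an unadjusted p under 0.05). Leaving out single arrays gave 4 called genes (either array with no named treatment at 90 d), 3 (either of those at 50 d) or 2 (Eng+/- clp at 90 d). The share of all features called in these fits is not given, so the counts cannot be read against it.

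By pair of arrays, the clp-tpa difference was larger at 50 d than at 90 d. At 50 d the median over the 40 genes was 1.07 in wt, with 24 genes at least 2-fold higher with clp beside 5.43% of all features, and 0.61 in Eng+/-. At 90 d it was 0.25 in wt and -0.25 in Eng+/-. From 50 to 90 d the median over the genes was higher with tpa and lower with clp in both genotypes, the latter not under scaling between arrays, which turned the clp median from -0.35 to 0.13. Kif11 went from -0.55 to 0.060 in wt and from -0.62 to 0.30 in Eng+/- with tpa, and from 0.93 to 0.41 and from 0.37 to -0.41 with clp. The change of day differed between clp and tpa by -1.42 ± 0.35 for Kif11, which had the smallest p-value of the set and was not called (limma interaction, adjusted p = 0.187). Over the set 39 of 40 such differences were negative, and 22 had an unadjusted p under 0.05 (55%), beside 13.9% of all features. This interaction called 0% of all features in either direction.

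Day by itself gave no call in any treatment (limma, 0 of 40 genes each, and 0% of all features). With tpa, 38 of 40 genes were higher at 90 d, with a median of 0.55 (0.56 in wt and 0.52 in Eng+/-), and 13 (32.5%) had an unadjusted p under 0.05, beside 5.76% of all features. Plk1 had the smallest p-value there, with 0.97 ± 0.30 (adjusted p = 0.582) and pairs that both lay at 0.97. With clp, 35 of 40 genes were lower at 90 d, with a median of -0.35 and all 23 mitotic differences were negative. At an unadjusted p under 0.05 there were 6 genes (15%), close to the 12.6% of all features. Cdc6 (-0.68 ± 0.21, adjusted p = 0.322), Tpx2 (-0.65 ± 0.22) and the checkpoint kinase Bub1b (-0.78 ± 0.27) had the smallest p-values. With no named treatment the median was -0.28 (0.18 under median centring) and the genotypes parted, with a median of -0.66 in Eng+/- and 0.14 in wt, and 1 gene (2.5%, beside 5.49% of all features), Ccnd2, had an unadjusted p under 0.05 (-0.70 ± 0.25, adjusted p = 0.836). The day difference with tpa exceeded that with no named treatment for all 40 genes, and 17 had an unadjusted p under 0.05 (8% of all features), led by Ccnd2 (1.27 ± 0.36, adjusted p = 0.475).

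**Figure D4:**
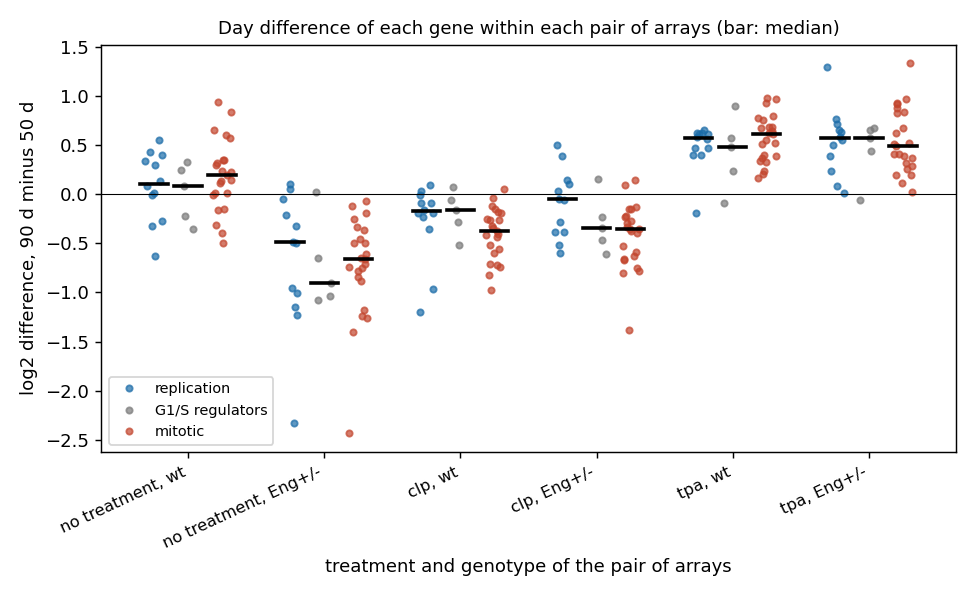
Log2 difference of 90 d minus 50 d for each gene (points, blue replication, grey G1/S, red mitotic, with black bars for medians) in the 6 pairs of arrays, by treatment and genotype. The clp pairs lie mostly below 0 and the tpa pairs mostly above 0, and of the pairs with no named treatment the Eng+/- one is low (median -0.66).

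Between genotypes, no gene of the set and no feature on the array was called (limma, 0 of 40, 0% of all features, with 2 of the 40 or 5% at an unadjusted p under 0.05, beside 13.3% of all features). The difference of Eng+/- from wt was negative for 35 of 40 genes, with a median of -0.16 (-0.020 under median centring). The median by pair was -0.49 with no named treatment at 90 d, 0.33 at 50 d, -0.40 and -0.45 with clp at 90 and 50 d, and 0.025 and 0.015 with tpa. The pairs with no named treatment thus pointed in opposite directions at the 2 days. Ccnb1 was lower in Eng+/- in 6 of 6 pairs (-0.31 ± 0.12, adjusted p = 0.345) and Mki67 in 5 of 6 (-0.45 ± 0.19, adjusted p = 0.362). Whether the genotype difference changed with day or treatment was tested with only 2 residual degrees of freedom. In the interaction with day, taken over all treatments, 0 genes were called and 0 had an unadjusted p under 0.05 (limma, smallest adjusted p = 0.9845). Likewise 0 genes were called in the interaction with clp (2 at an unadjusted p under 0.05, Pcna and Ube2c) or with tpa. Each of these interactions called 0% of all features, and the share of all features at an unadjusted p under 0.05 is not given.

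The median differences of replication and mitotic genes had the same sign in every contrast of the limma fit and differed in size in some. With clp the median difference was 0.46 for replication and 0.55 for mitotic genes, and the gap changed sign when probes were averaged per gene. It also changed sign without wt clp at 90 d (0.011 for replication less mitotic), without Eng+/- clp at 50 d (0.011) and without both wt arrays whose reference stood apart (0.031). From 50 to 90 d with clp, the mitotic median was -0.46 and the replication median -0.18, a gap of 0.29 that kept its sign under every alternative tried. Without wt clp at 50 d, on which the centred replication median was 0.42 and the mitotic one 0.72, the gap was 0.17. For the change of day in clp less that in tpa, the medians were -0.56 for replication and -0.96 for mitotic genes. From 50 to 90 d with tpa, both medians were 0.54. The correlation with the mean of the other 39 genes ran from -0.11 (Tyms) to 0.94 (Mcm2) within the replication group and from 0.55 (Kif23) to 0.97 (Bub1) within the mitotic group. No test was made between the groups.

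Markers of hair matrix, hair shaft and melanocytes moved with these genes. Those of the other skin cell types had negative correlations with them, largest in size for adipocyte and leukocyte markers. In bulk RNA, fewer cells of a type and less RNA per cell cannot be told apart. The 8 hair matrix markers had a centred median of -0.99 on Eng+/- with no named treatment at 90 d and of -1.08 and -0.98 on the tpa arrays at 50 d, the same 3 arrays on which most cell cycle genes were lowest. On the wt clp arrays it was 1.05 at 50 d and 1.09 at 90 d. The 8 melanocyte markers were also lowest on those 3 arrays, at -2.04 to -1.83, and highest on wt clp at 50 d (1.75). The 10 hair shaft markers lay between -5.07 and -4.15 on those 3 arrays and between -1.44 and 1.69 on the other 9. Over the 12 arrays the median of the 40 genes correlated with the melanocyte median at r = 0.93, the hair matrix median at 0.88, the hair shaft median at 0.78, the basal epidermis median at -0.22, the suprabasal median at -0.33, the fibroblast median at -0.24, the muscle median at -0.46, the leukocyte median at -0.61 and the adipocyte median at -0.66. For the stem cell markers, the cell type of the labels, r was -0.0032. These values share the pool, the slides and the normalization, and carry no test.

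**Figure D5:**
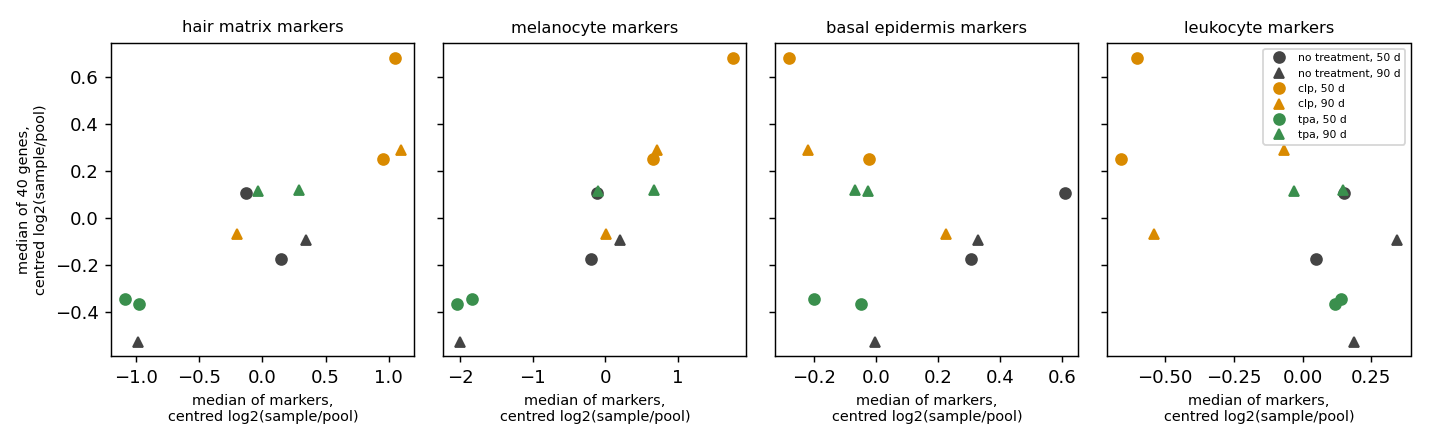
Median of the 40 genes (vertical axis) against the median of hair matrix, melanocyte, basal epidermis and leukocyte markers (horizontal axes), all as centred log2 ratios, with 1 point per array (colour for treatment, circles for 50 d, triangles for 90 d). The 3 arrays with the lowest gene medians are also the 3 lowest in hair matrix and melanocyte markers.

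With clp, 3 of 8 hair matrix and 3 of 8 melanocyte markers rose and 0 fell, and 5 of 7 leukocyte markers fell, beside the 5 of 40 cell cycle genes that rose and the 4.27% of all features called higher and 3.5% lower. At an unadjusted p under 0.05 were 62.5% of hair matrix, 75% of melanocyte and 85.7% of leukocyte markers, beside 27% of all features. Of 10 hair shaft markers 2 rose, and 40% were at an unadjusted p under 0.05. Of the shorter lists, 1 of 4 suprabasal, 1 of 5 fibroblast and 1 of 3 adipocyte markers fell, too few for a share to be read against all features. Summed net Cy5 signals of the hair matrix list ran from 9202 to 23970 units with no named treatment, from 16890 to 105800 with clp and from 9794 to 42470 with tpa. The leukocyte sums ran from 32060 to 87210, from 10660 to 28190 and from 69230 to 82550 units in the same order. On every array at least 7 of the 8 hair matrix and 7 of the 8 melanocyte markers were well above background. Of the hair shaft markers, 7 of 10 had a probe saturated in Cy5 on at least 1 array, so their upper values are bounds. The same held for 4 of 7 basal epidermis, 3 of 4 suprabasal, 5 of 6 fibroblast and 4 of 5 muscle markers. It also held for 2 of 8 melanocyte, 2 of 4 adipocyte and 1 of 7 leukocyte markers, and for 0 of 8 hair matrix markers. Differences of the saturated markers can therefore be understated. Basal epidermis markers, which mark the other main pool of dividing skin cells, were not called with clp or with tpa (limma, 0 of 7, with 2 or 28.6% at an unadjusted p under 0.05 in each, beside 27% and 26% of all features), and all 7 differences were negative in both. The part of hair matrix or melanocyte content in the cell cycle differences was not tested.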

How the data were processed

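RNA of 12 samples was hybridised to 12 Agilent mouse arrays of 2 dyes. Per the file headers, the deposited files give each spot's raw, local background and processed signals as intensity values, made with Feature Extraction 10.7.3.1 (10.0 per the submitters' processing notes), and the deposited log10 ratio compares the authors' processed Cy5 and Cy3 signals. Median intensities were read into R 4.3.3 with data.table (version 1.17.8). With limma 3.58.1, background was corrected by normexp (offset 50) and ratios were normalized by loess within arrays. Control spots took no part, 975 of 39429 probes were left out for an outlier flag, and a probe was tested if well above background in Cy5 on at least 2 arrays (30498 probes). The brightest of the 3 Ccnb1 probes was among those left out. Where a gene had several probes, the brightest on average was used.

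One limma model (genotype plus 6 treatment-by-day conditions, eBayes with trend, 5 residual and 4.16 prior degrees of freedom) gave all differences, and a second with all interactions of pairs of factors had 2 residual degrees of freedom. With 1 array per combination, p-values set each difference against the spread of arrays around this additive model. That spread is not one between replicates, and the number of arrays limits the precision. Benjamini-Hochberg adjustment ran over 25085 features, and called means adjusted p under 0.05. The fits were run on data simulated from the same additive model with independent noise for each gene. Such data cannot test whether that model holds for these arrays. The design had assumed mean signals, but the files used hold median signals.

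The members, marker lists and pathway lists were chosen with earlier results of these data known. Per role group, up to 6 called genes with the smallest p are given, or the 2 smallest if none is called, and Mki67, Mcm2, Pcna, Rrm2, Ccnb1 and Ccnd1 are given on every array. Alternatives were other background corrections, normalizations, filters, probe summaries and left-out arrays.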

Additional observations from a re-analysis of the deposited data

How the results depend on the processing

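Genotype and the treatment-by-day conditions were terms of every fit, so treatments were compared between arrays matched for genotype and day, and with 1 array per group there was no replicate number to add as a block. Of 480 recomputed summary values, 400 stayed within the limits set for no change, 80 moved, and for single genes 900 stayed, 60 lost and 23 gained the threshold, with no called value turning its sign. Genes called with clp numbered 9 with the processed signals, 1 with scaling between arrays, 8 with Cy5 alone, 17 without background correction, 0 without both wt arrays whose reference stood apart, and 0 to 9 when single arrays were left out. In that order, up to the wt arrays, all features called with clp numbered 4085, 627, 6150, 4543 and 8. The main fit called 1948. For fits without single arrays the all-feature counts are not given here. Of 23 alternatives, 16 kept Mcm7, 11 Mki67, 11 Kif11, 9 Plk1 and 8 Ccna2. Genes called with tpa numbered 1 under median centring, 3 without the 90 d arrays of no named treatment and 0 to 5 leaving out single arrays, and between clp and tpa 1 with averaged probes, 4 without those arrays and 0 to 4 leaving out single arrays. All features called with tpa numbered 1037 under median centring and 2810 without those 90 d arrays. Between clp and tpa they numbered 2132 with averaged probes and 2969 without those arrays. Median centring moved the median of all features by 0.24 for clp, 0.34 for tpa, 0.24 for day with no named treatment and 0.11 for genotype. Under it the median over the 40 genes was 0.84 for clp, 0.69 for tpa, -0.020 for genotype and 0.18 for day with no named treatment, and scaling gave 0.13 for day in clp. Without both wt arrays that median was -0.12 for tpa and -0.52 for day with no named treatment, and without those 90 d arrays it was 0.56 for clp and -0.36 for tpa. Leaving out single arrays, it ran from 0.27 to 0.59 for clp, from -0.14 to 0.22 for tpa, from -0.51 to -0.13 for day in clp and from -0.56 to -1.91e-05 for day with no named treatment.

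The median of replication less that of mitotic genes moved as follows. For clp it was -0.16 with Cy5 alone, 0.029 with averaged probes, 0.031 without both wt arrays, -0.29 without those 90 d arrays and -0.15 to 0.011 leaving out single arrays. For tpa it was -0.14 with scaling and -0.13 to 0.037 leaving out single arrays. For clp against tpa it was -0.23 with the processed signals, -0.23 under median centring, -0.17 with Cy5 alone, -0.20 without background correction, -0.012 without both wt arrays and -0.13 to -0.011 leaving out single arrays. For genotype it was 0.14 with the processed signals, 0.14 under median centring, -0.074 with scaling, 0.17 with Cy5 alone, 0.11 without background correction and -0.013 to 0.11 leaving out single arrays. For day with no named treatment it was 0.086 under median centring, 0.18 without both wt arrays and -0.15 to 0.20 leaving out single arrays. For day in clp it was 0.43 under median centring, 0.38 with scaling, 0.19 without background correction and 0.17 to 0.33 leaving out single arrays. For day in tpa it was -0.17 under median centring, -0.10 with Cy5 alone and -0.090 to 0.10 leaving out single arrays. The cause of these moves was not tested. All 40 genes were well above background in Cy5 on all 12 arrays and 37 in Cy3, so dim reference signal limits Cdc6, Ccne2 and Aurkb.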
